A study of Oryctolagus cuniculus with 6 samples.

Results

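The genes described here are 7 rabbit genes, ISM1, RASGRP3, NPR3, LRRK1, ECD, FAM98B and NBR1, that the authors listed both ways, with a linear messenger RNA in the mRNA table and with at least 1 circular RNA (circRNA) in the circRNA table. They were chosen by symbol, and they account for 7 linear transcripts of the 421 listed mRNAs and 10 circRNAs of the 1694 listed. In all, 9 genes with a symbol stood in both tables, which is 2.86% of the 315 symbols of the mRNA table and 0.821% of the 1096 host genes of the circRNA table. The other two, AOX1 and FKBP5, are not among the genes described. Both tables hold only features that the authors had selected for a difference between the study's groups, an absolute log2 fold change over 1 and, for mRNAs, also a p-value under 0.05. The differences between the groups below are therefore what put these genes in the tables; they are given as a description and are not tested again.

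The samples were hypertrophic scars from the ears of 6 rabbits, female New Zealand White, at day 21 after full-thickness wounding, with 3 rabbits in each group. Control wounds received saline, and ADSC-Exos wounds received exosomes from adipose-derived stem cells, small vesicles that cells secrete, at 100 µg in 2 ml; these animals are called treated below. The series text places the applications in the first 3 days and the sample labels speak of 21 days, which the sources used here do not settle. Age, the way the wounds of a rabbit were combined and the genome build are not given in the sources used here. The chromosomes and positions of circRNAs below are as the authors gave them and were not checked against a genome. Values are log2(normalized reads + 1), and each difference is the ADSC-Exos mean minus the control mean.

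A circRNA forms when the end of an exon is spliced back to the start of the same or an earlier exon of the same precursor RNA, which closes the exons into a ring with no free end. A ring has no cap and no poly(A) tail and resists exonucleases, so it can outlast the linear messenger of its gene. Back-splicing and ordinary splicing use the same precursor, so the 2 products of a gene can move together, as when transcription changes, or apart. The DNA and RNA sequences of these genes are not in the sources used here, and none is printed.

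All 10 circRNAs are annotated in the circRNA table as exonic, as were 94.8% of all listed circRNAs. Each of the 10 names the listed linear transcript of its gene among the transcripts it can come from, and 7 of them, of 5 genes, also name another transcript, whose level was not analysed here. ISM1, ECD and FAM98B had 2 listed circRNAs each and the remaining 4 genes had 1. Of all 1096 hosts, 29.4% had more than 1. The 2 circRNAs of ISM1 share an end, and so do those of FAM98B, whereas those of ECD do not overlap. Sharing a start or an end was found for 41.6% of the hosts with more than 1 listed circRNA. Spans from start to end ran from 0.422 to 21.2 kb with a median of 8.19 kb, against a median of 8.11 kb over all listed circRNAs.

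Reads were the limit throughout for the circles. The listed mRNAs held 86844 to 224554 reads per rabbit and the listed circRNAs 856 to 1592. The 10 circRNAs had 82 reads over the 6 rabbits, of which the longer ISM1 circle had 46 and each of the other 9 had 2 to 7. Their median was 3.5 reads, and that of all listed circRNAs was 3. Of the 10, 8 had no read in 1 of the groups, as did 82.2% of all listed circRNAs. A count of 0 in a rabbit allows up to 3 reads, and such limits and the intervals below cover counting error only. Circular reads here were recovered from the deposited log2 values. The limits and intervals take 1 recovered circular read as 1 deposited read, which could not be checked.

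**Figure D1:**
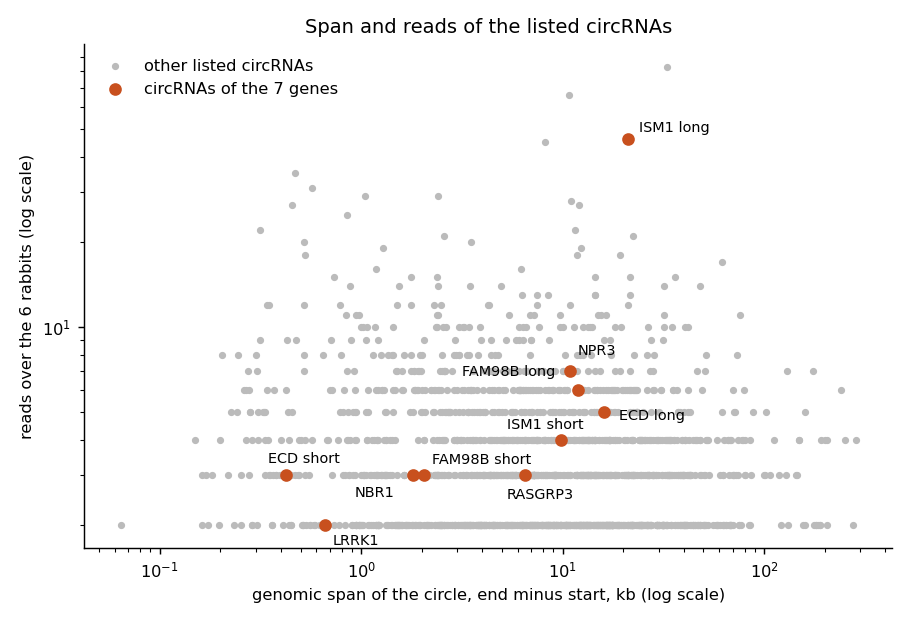
Genomic span of each listed circRNA in kb (horizontal, log scale) against its reads summed over the 6 rabbits (vertical, log scale), with the 10 circRNAs of the 7 genes in orange and the other listed circRNAs in grey. The longer ISM1 circle, at 46 reads, stands near the top of the table, and the remaining 9 lie between 2 and 7 reads.

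Over the 7 genes, 4 linear transcripts were listed as higher in ADSC-Exos scars (ISM1, RASGRP3, FAM98B, NBR1) and 3 as lower (NPR3, LRRK1, ECD). Among all listed mRNAs 57.5% were higher. Of the 10 circRNAs 5 were higher and 5 lower, and 53.8% of all listed circRNAs were higher. Linear and circular differences had the same sign in 5 of the 10 pairs and opposite signs in 5. By gene, ISM1, RASGRP3 and NPR3 had the same sign throughout, LRRK1, FAM98B and NBR1 had opposite signs, and the 2 circRNAs of ECD went opposite ways. The groups did not overlap for 2 of the 7 linear transcripts, RASGRP3 and NPR3, against 53.7% of all listed mRNAs, and for 1 of the 10 circRNAs, the longer ECD circle, against 12% of all listed circRNAs. In the authors' deposited table, whose test is not named there, 0 of the 7 linear transcripts had an FDR under 0.05 (11.6% of all listed mRNAs did), with FDR from 0.144 to 0.631, while all 7 had an unadjusted p under 0.05, the condition for being listed. Of the circRNAs 0 of 10 had an FDR under 0.05 in the authors' deposited table (0% of all listed circRNAs), and 0 had an unadjusted p under 0.05. The lowest deposited p of any listed circRNA was 0.0796, so no listed circRNA was under 0.05.

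**Figure D2:**
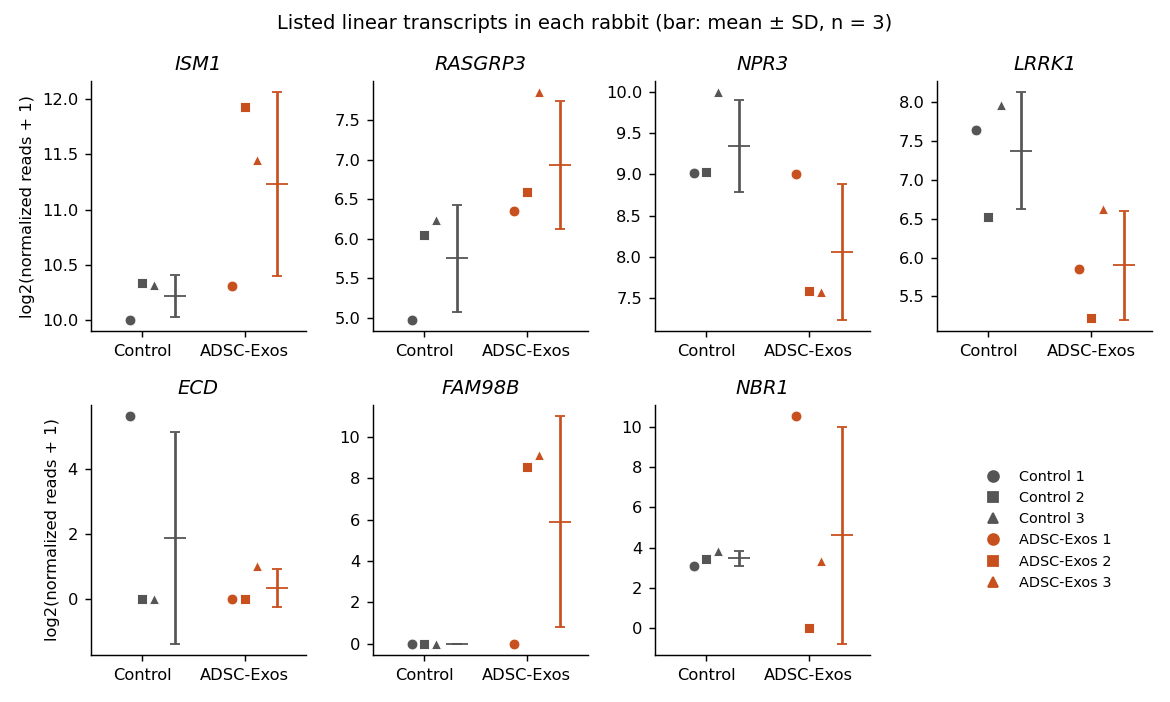
Level of the listed linear transcript of each gene in each rabbit, as log2(normalized reads + 1), with control rabbits in grey, ADSC-Exos rabbits in orange and bars for the mean ± SD of 3 rabbits. ISM1, RASGRP3, NPR3 and LRRK1 were read in all 6 rabbits, while most reads of ECD, FAM98B and NBR1 came from 1 or 2 rabbits.

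ISM1 encodes isthmin 1, a secreted protein with a thrombospondin repeat that is known as an inhibitor of angiogenesis and as an adipokine. Its linear transcript ENSOCUT00000001309 was at 10.01, 10.34 and 10.32 in control rabbits 1 to 3 and at 10.31, 11.92 and 11.45 in ADSC-Exos rabbits 1 to 3. ADSC-Exos rabbit 1 lay within the control range, and ADSC-Exos rabbits 2 and 3 lay above it. The means were 10.22 ± 0.19 and 11.23 ± 0.83 (SD, n = 3), a difference of 1.01 (SE 0.49), the closest of the 7 to the selection threshold of 1, and 0.66 without ADSC-Exos rabbit 2. Mean normalized reads were 1199 and 2650, a 2.21-fold ratio. In bulk tissue a change in the number of cells that make an RNA and a change in RNA per cell cannot be told apart.

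The longer ISM1 circle, on chromosome 4 from 22909226 to 22930421 as the authors' table gives it, was rank 3 by reads among the listed circRNAs. It had 3, 5 and 3 reads in the controls and 3, 15 and 17 in the treated animals. The same ADSC-Exos rabbits 2 and 3 were high for the circle and for the messenger, and ADSC-Exos rabbit 1 was at the control level for both. Summed reads were 11 in control scars (95% exact Poisson interval 5.49 to 19.7) and 35 in ADSC-Exos scars (24.4 to 48.7). On the log2 scale the circle was at 3.00 ± 0.38 and 4.32 ± 1.21, a difference of 1.32 (SE 0.73), which was 2.01 without ADSC-Exos rabbit 1. The listed circRNAs as a whole also held most reads in ADSC-Exos rabbits 2 and 3, at 1592 and 1529, against 856 in ADSC-Exos rabbit 1 and 1071 to 1146 in the controls, while the size factor was 0.510 in all rabbits but ADSC-Exos rabbit 1, at 0.454. These totals cover only circRNAs that were selected for a difference between the groups, so they do not measure the depth of a library. Their part in the circular differences was not tested.

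**Figure D3:**
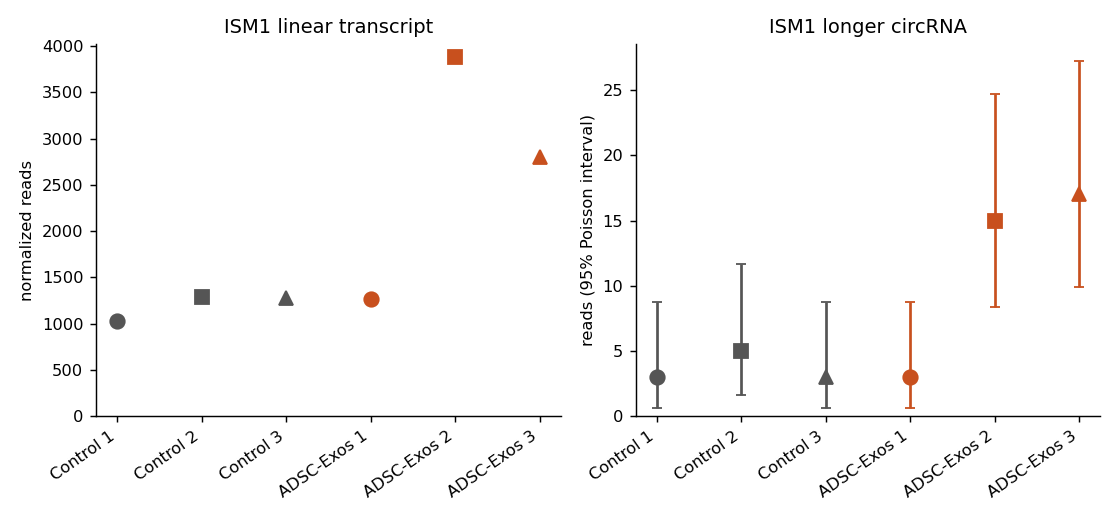
Normalized reads of the ISM1 linear transcript (left) and reads of the longer ISM1 circle with 95% exact Poisson intervals (right) in each rabbit, with controls in grey and ADSC-Exos in orange. ADSC-Exos rabbits 2 and 3, at 15 and 17 circular reads, were the highest for both products, and ADSC-Exos rabbit 1, at 3 circular reads, was at the control level for both.

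Set against the messenger, circular reads made up 0.301% of circular plus linear ISM1 reads in control scars (95% Wilson interval 0.168 to 0.538) and 0.443% in ADSC-Exos scars (0.319 to 0.616). By rabbit the share ran from 0.246% to 0.385% in controls and was 0.234%, 0.390% and 0.615% in ADSC-Exos rabbits 1 to 3. The intervals of the groups overlap. They pool the reads of 3 rabbits and leave out the spread between rabbits, and a change in the share was not tested. The sources used here do not say how linear and circular reads were counted, so the share is not a ratio of molecules. Within each rabbit, the log2 circular minus linear value changed between the groups by 0.31 (SE 0.35). It was 0.47 without control rabbit 2, 0.15 without control rabbit 3, 0.55 without ADSC-Exos rabbit 1 and 0.03 without ADSC-Exos rabbit 3. The shorter ISM1 circle, from 22920548 to the same end, had no control reads and 1, 3 and 0 reads in the treated animals, a difference of 1.49 (SE 0.81), or 0.84 without ADSC-Exos rabbit 2.

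NPR3 encodes the natriuretic peptide clearance receptor, which binds and internalises these peptides and lacks the guanylyl cyclase of its relatives. Its linear transcript had 613, 520 and 908 reads in controls 1 to 3 and 516, 189 and 186 in the treated animals. The groups did not overlap, but after normalization ADSC-Exos rabbit 1, at 9.01, stood just under control rabbits 1 and 2, each at 9.02, while ADSC-Exos rabbits 2 and 3 were well below them. The means were 9.35 ± 0.56 and 8.06 ± 0.82, a difference of -1.29 (SE 0.58).

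The NPR3 circle, on chromosome 11 from 54484286 to 54495206, had 1, 0 and 6 reads in the controls and none in the treated animals. Most of its reads therefore came from control rabbit 3, which also had the most linear reads, and its difference of -1.75 (SE 1.06) was -0.78 without that rabbit. The 7 control reads have a 95% exact Poisson interval of 2.81 to 14.4, and of the single rabbits only control rabbit 3 had more than the 3 reads that a count of 0 allows. Circular reads were 0.342% of circular plus linear NPR3 reads in control scars (Wilson interval 0.166 to 0.704) and 0% in ADSC-Exos scars, with none beside 891 linear reads (Wilson interval 0 to 0.429). These intervals overlap and pool the rabbits of a group, and a change in the share was not tested. The share depends on the unit of the recovered circular reads, as for ISM1.

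A long noncoding RNA, MSTRG.2289.1, is listed in the authors' lncRNA table as lying within 3 kb of an NPR3 transcript. It was the only 1 of the 133 listed lncRNAs so placed beside any transcript that the circRNAs of the 7 genes name. It had 64, 93 and 108 reads in the controls and 32, 38 and 47 in the treated animals, with groups that did not overlap. The difference was -1.11 (SE 0.38), and the authors' deposited table gave it an FDR of 0.184. It was selected for that difference as the messenger was, so the shared direction is not independent evidence.

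RASGRP3 encodes an exchange factor that loads Ras and Rap proteins with GTP on binding diacylglycerol. Its linear transcript had 36, 65 and 66 reads in the controls and 81, 94 and 225 in the treated animals. The groups did not overlap, though the highest control, at 6.23, was close to the lowest treated animal, at 6.35, and ADSC-Exos rabbit 3 was well above all others. The means were 5.75 ± 0.68 and 6.93 ± 0.81, a difference of 1.18 (SE 0.61), or 0.72 without ADSC-Exos rabbit 3. Its circle, on chromosome 2 from 152796353 to 152802868, had no control reads and 0, 1 and 2 reads in the treated animals, so the rabbit with the most linear reads also had the most circular reads. The circular difference was 1.29 (SE 0.68), or 0.78 without ADSC-Exos rabbit 3.

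LRRK1 encodes a large kinase with leucine-rich repeats and a Ras-like GTPase domain that is known for its role in bone resorption by osteoclasts. Its linear transcript had 234, 91 and 220 reads in the controls and 57, 36 and 96 in the treated animals. ADSC-Exos rabbit 3 was above control rabbit 2, so the groups overlapped. The means were 7.37 ± 0.75 and 5.90 ± 0.70, a difference of -1.47 (SE 0.59). The circle, on chromosome 17 from 84950788 to 84951453, went the other way, with no control reads and 0, 1 and 1 reads in the treated animals, a difference of 1.04 (SE 0.52). These 2 reads have a 95% exact Poisson interval of 0.242 to 7.22, and no rabbit had more than the 3 reads that a count of 0 allows, so the opposite sign rests on a difference not detectable at this depth.

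**Figure D4:**
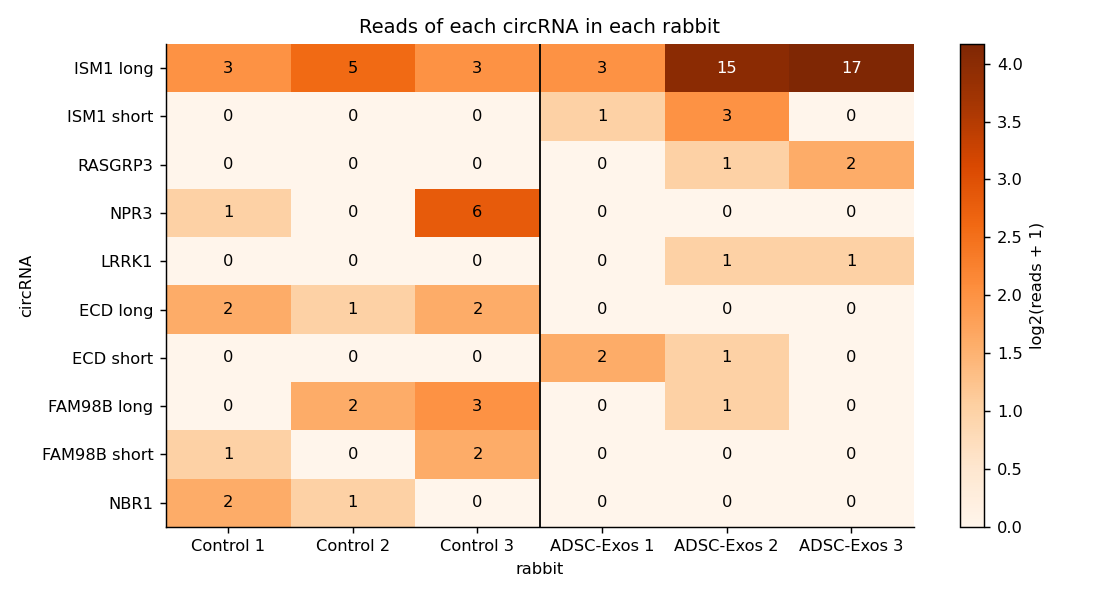
Reads of the 10 circRNAs (rows) in each rabbit (columns, controls left of the line), with the number printed in each cell and the shade giving log2(reads + 1). The longer ISM1 circle is the only 1 of the 10 with reads in all 6 rabbits, and the rest have reads in 2 or 3.

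NBR1 encodes a receptor of selective autophagy that links ubiquitin-tagged cargo to the growing autophagosome. Its linear transcript ENSOCUT00000022220 had 9, 10 and 12 reads in the controls and 1473, 0 and 9 in the treated animals. ADSC-Exos rabbit 1 held 97.3% of its normalized reads, ADSC-Exos rabbit 2 had none, and the groups overlapped. The difference of 1.15 (SE 3.11) was -1.80 without ADSC-Exos rabbit 1 and 3.46 without ADSC-Exos rabbit 2, so its sign depended on the rabbit left out. The NBR1 circle, on chromosome 19 from 43799952 to 43801754, had 2, 1 and 0 reads in the controls and none in the treated animals, including the rabbit with 1473 linear reads. Its difference was -1.29 (SE 0.68), or -0.78 without control rabbit 1.

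FAM98B encodes a subunit of the complex that joins the exon ends of spliced tRNAs. Its listed transcript ENSOCUT00000025823 had no reads in the 3 control rabbits or in ADSC-Exos rabbit 1, and 368 and 549 reads in ADSC-Exos rabbits 2 and 3. The groups overlapped, as ADSC-Exos rabbit 1 had no reads like the controls, and the ADSC-Exos mean rests on rabbits 2 and 3. Against a floor of 3 reads in each control rabbit, that mean was at least 104-fold higher, a bound that allows only for counting error in the controls. Leaving out ADSC-Exos rabbit 3 lowered this bound to 62-fold, and leaving out ADSC-Exos rabbit 1 raised it to 157-fold. The log2 difference was 5.89 (SE 2.95). A group without reads was found for FAM98B alone among the 7 and for 12.8% of all listed mRNAs. Its circles were read in rabbits where the listed transcript was not. The longer circle, on chromosome 17 from 33672158 to 33684066, had 0, 2 and 3 reads in the controls and 0, 1 and 0 in the treated animals, and the shorter, from 33682005 to the same end, had 1, 0 and 2 reads in control rabbits alone. Every control rabbit thus had circular FAM98B reads and no read of the listed messenger. Both circles also name a transcript of the gene that was not analysed here. The circular differences were -1.17 (SE 1.00) and -1.29 (SE 0.68). The longer circle was at -2.02 without control rabbit 1 and -0.63 without control rabbit 3, and the shorter at -0.78 without control rabbit 3.

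ECD encodes the counterpart of the Drosophila ecdysoneless protein, known in human and mouse cells in cell cycle control and pre-mRNA splicing. Its listed transcript ENSOCUT00000030000 had 58 reads in control rabbit 1, none in control rabbits 2 and 3, and 0, 0 and 1 reads in the treated animals. Control rabbit 1 held 98.0% of the normalized reads. The difference of -1.54 (SE 1.91) was 0.34 without that rabbit and -2.48 without either other control rabbit. For ECD and NBR1 a single rabbit thus held over 90% of the normalized reads, a line drawn after the values were seen, which 3.09% of all listed mRNAs passed.

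The longer ECD circle, on chromosome 18 from 14222087 to 14238157, had 2, 1 and 2 reads in the controls and none in the treated animals, so it was read in control rabbits 2 and 3, where the listed messenger was not. Its groups did not overlap, at 2.06 ± 0.42 and 0, a difference of -2.06 (SE 0.24). This difference depends on the scale, and was -5.01 with a pseudocount of 0.1 and -0.72 with a pseudocount of 5. It was -1.39 with no size factor and -1.38 with the mRNA table's size factors. Those 2 values hold only if 1 recovered circular read is 1 deposited read, which could not be checked. The shorter ECD circle, from 14251421 to 14251843, had no control reads and 2, 1 and 0 reads in the treated animals, a difference of 1.33 (SE 0.71), or 0.78 without ADSC-Exos rabbit 1. The 2 circles of ECD thus went opposite ways on 5 and 3 reads. Those reads have 95% exact Poisson intervals of 1.62 to 11.7 and 0.619 to 8.77, each overlapping that of the same circle's group without reads, 0 to 3.69, and no rabbit had more than the 3 reads that a count of 0 allows.

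**Figure D5:**
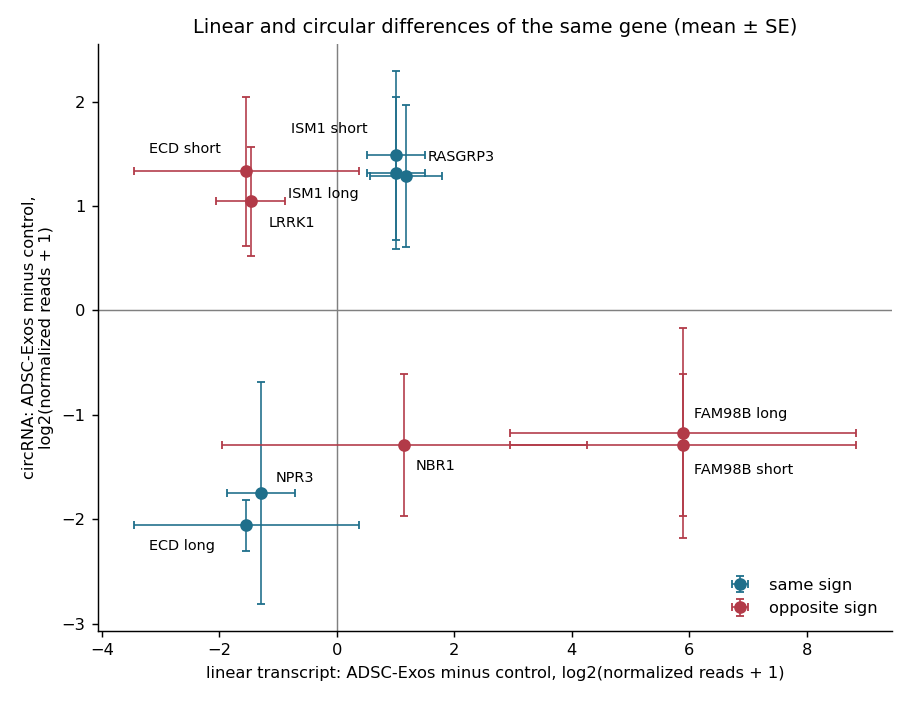
Difference of each circRNA (vertical) against that of the listed linear transcript of its gene (horizontal), both as ADSC-Exos minus control on the log2(normalized reads + 1) scale, with bars for the SE. The 5 blue pairs have the same sign and the 5 red pairs opposite signs, and the horizontal SE is 2.95 for FAM98B, 3.11 for NBR1 and 1.91 for both ECD pairs, blue and red, against 0.59 for the red LRRK1 pair.

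The signs can be set beside how evenly each messenger was read, a grouping made after the values were seen and not tested. The linear transcripts of ISM1, RASGRP3, NPR3 and LRRK1 had reads in all 6 rabbits, and 4 of their 5 circles had the sign of the messenger, LRRK1 being the exception. Those of ECD, FAM98B and NBR1 had reads in 2, 2 and 5 rabbits, most of them in 1 or 2, and 1 of their 5 circles had the sign of the messenger. The circular minus linear difference changed sign in at least 1 alternative setting for 5 of the 10 pairs. Every listed linear and circular difference was over 1 in size by selection, so pairs of opposite sign started from a large value. A kept sign in those pairs therefore follows in part from the selection. For the 5 pairs that kept their sign, the size still varied. It ranged from 0.03 to 0.55 for the longer ISM1 circle and from 1.00 to 5.10 for the shorter ECD circle, whose 2.88 (SE 2.15) fell to 1.00 (SE 1.04) without control rabbit 1. The LRRK1 value of 2.51 (SE 0.77), for a circle with 2 reads, ranged from 1.73 to 4.40. The FAM98B circles ranged from -10.39 to -4.85 and from -11.34 to -4.79.

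ADSC-Exos rabbit 1 was the lowest of its group for 3 of the 4 linear transcripts listed as higher, with NBR1 the exception, and for 83.9% of all 242 listed mRNAs that were higher. It was the highest of its group for 1 of the 3 listed as lower, NPR3, and for 41.9% of all 179 such mRNAs.

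The genes around these 7 were looked up in 9 lists of 84 gene symbols in all, some being other names of the same gene. The lists held factors of circRNA formation, often described circRNA hosts and the partners of each gene. None of the 84 symbols was among the listed mRNAs, and 10 of them hosted 15 listed circRNAs, 6 higher and 9 lower. A circle of ITGB5, a subunit of an integrin to which isthmin 1 binds, had 2, 2 and 4 reads in the controls and 0, 0 and 1 in the treated animals, a difference of -2.06 (SE 0.59). RAP1A, SOS1 and SOS2, of the Ras and Rap pathway of RASGRP3, hosted 6 circles, 2 higher and 4 lower. A circle of LRRK2, the closest relative of LRRK1, had 0, 1 and 1 reads in the treated animals and none in controls, the same reads as the LRRK1 circle. A circle of ASPH and a circle of SOS2, from the same lists, also had exactly these reads. A circle of ADAR, an RNA-editing enzyme that can limit back-splicing, had 1, 0 and 0 reads in the controls and 1, 2 and 5 in the treated animals. The natriuretic peptide, selective autophagy, tRNA ligase and ECD partner lists had no member in either table.

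By Pearson correlation over the 6 rabbits, as a description among 255 or 256 candidate listed genes, the linear pattern of ISM1 was nearest to TRPV5 and IL1R2 (r = 0.99 for each). That of NPR3 was nearest to SLC7A3 and LTB (0.99 for each), that of RASGRP3 to WISP3 and KRT78 (0.95 and 0.94), and that of LRRK1 to ALPK2 and PACSIN1 (0.95 for each). FAM98B was nearest to CCL1 and AVPR1A (0.998 for each), ECD to USP15 and FANCE (0.96 and 0.82), and NBR1 to LZTS2 and LZTS1 (0.92 for each). All listed genes were selected for a difference between the same groups in the same libraries, so they share the group difference: the 90th percentile of r over the candidates was 0.96 for ISM1 and FAM98B, 0.88 for NPR3, 0.81 for RASGRP3, 0.73 for LRRK1, 0.39 for ECD and 0.35 for NBR1.

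None of 8 scar fibroblast and matrix markers, 4 keratinocyte, 3 endothelial and 3 lymphocyte markers was among the listed mRNAs, so the labelled tissue could not be checked from these tables. Of 4 erythrocyte markers 3 were listed, with summed normalized reads from 9701 to 37337 in controls and 3633 to 6924 in the treated animals. Of 4 cartilage markers COL10A1 was listed, from 8313 to 22345 and from 2718 to 5804. Of 4 skeletal muscle markers 2 were listed, from 7.87 to 247 and from 3.98 to 8.16, and of 4 macrophage markers MSR1 was listed, from 58.3 to 107 and from 77.5 to 345. The part of these cell types in the differences of the 7 genes was not tested.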

How the data were processed

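RNA sequencing of rabbit scar tissue was deposited as tables of selected mRNAs, lncRNAs and circRNAs. Per the submitters' processing notes, which state no roles, the tools were STAR 2.7.6a, HTSeq 2.0.3, DESeq2 1.30.1, Trimmomatic 0.40 and FastQC 1.0.0. The tables the authors deposited hold log2 values. Once the log2 and a pseudocount of 1 are undone, 100% of the values of every column are whole numbers of reads times a constant of that library, to a tolerance of 0.01 reads; the inverse of that constant is taken as the authors' size factor. Taken so, size factors were 0.890 to 1.18 for mRNAs and lncRNAs and 0.454 to 0.510 for circRNAs. The largest such constant was used, so counts that are all multiples of the same number would be recovered as too few reads. A recovered circular read was worth 1.96 to 2.20 normalized reads, and a linear one 0.845 to 1.12. A recovered circular read may therefore stand for more than 1 deposited read, with higher size factors. This could not be checked, and the deposited log2 values do not depend on it. P-values and FDR are those of the authors' deposited tables.

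Means, SD, SE, exact Poisson and Wilson intervals were computed with Python 3.11.15, pandas 2.3.3 and scipy 1.17.1. The recovery of reads was tested on data simulated from the mRNA reads. The lower counts and size factors of the circRNAs were not simulated. The 7 genes and the lists were chosen with earlier results of these data known, and their contrast was used in choosing them, so no test was run on it. All 7 genes are named, with the 2 most similar listed mRNAs of each that averaged at least 10 normalized reads. Each replicate is a separate rabbit. Alternatives changed the pseudocount, size factors, filter on low values and rabbits included.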

Additional observations from a re-analysis of the deposited data

How the results depend on the processing

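Depth limits the circRNAs: 9 of the 10 had at most 7 reads. Pairs with the same sign, 5 of 10, were 5 with a pseudocount of 0.1 or 5, with no size factor and with the mRNA table's size factors, 5 to 6 without 1 rabbit, 4 of 6 when circles and transcripts averaging under 1 normalized read were dropped, and 1 of 1 when those under 10 were, which leaves only the longer ISM1 circle. Linear transcripts whose groups did not overlap, 2 of 7, ranged from 2 to 4 when a rabbit was left out, reaching 4 when that was ADSC-Exos rabbit 1; the share of all listed mRNAs then ranged from 55.8% to 86.2%, the latter without the same rabbit. CircRNAs whose groups did not overlap, 1 of 10, were 1 to 4 without 1 rabbit, against 23.7% to 32.7% of all listed circRNAs, and 0 of 1 under the limit of 10. Dropping a rabbit cannot lower such a count, and these shares were computed after seeing the data, as were the bounds on linear FAM98B. A deposited p under 0.05 in place of an FDR gave 7 linear transcripts in place of 0, as the table was selected on it, and an FDR under 0.1 gave 0. Matching symbols without regard to letter case left 9 shared genes. Among single differences, linear ECD ranged from -2.48 to 0.34 and linear NBR1 from -1.80 to 3.46 when a rabbit was left out, the only sign changes of a linear or circular difference. Circular differences moved by more than the spread between rabbits in 15 of 40 comparisons under other scales and in 0 of 60 without 1 rabbit. Linear differences did so in 0 of 21 under other scales. For circles, the settings that change the size factors rest on the recovered reads, whose unit could not be checked. No paired analysis was possible, because the replicate numbers name separate rabbits that nothing in the labels links across groups. No test was run between the groups.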

Other observations

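AOX1, an aldehyde oxidase, and FKBP5, a chaperone of steroid receptors, were the remaining genes with a symbol in both tables. Linear AOX1 had 2260, 2493 and 2399 reads in the controls and 1353, 11627 and 9189 in the treated animals. Its circle had 0, 8 and 2 reads in the treated animals and none in controls. Linear FKBP5 had 1346, 2297 and 3163 reads in the controls and 1491, 19853 and 13196 in the treated animals. Its 2 circles had 0, 2 and 2 and 0, 2 and 6 reads in the treated animals and none in controls. For both genes ADSC-Exos rabbits 2 and 3 had the most reads of each listed product. In ADSC-Exos rabbit 1, linear AOX1 was below every control, linear FKBP5 was within the control range, and the circles had no reads.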
